A study of Mus musculus with 4 samples.

Results

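Transcription elongation factors and the RNA decay machinery that removes faulty or surplus transcripts were followed in smooth muscle cells (SMCs) of the mouse lung. They comprised 30 genes out of the 21462 in the deposited table, chosen by name: 13 genes of transcription elongation, 10 of the RNA exosome, 2 exonucleases that act from the 5′ end and 5 of nonsense-mediated decay. All 30 had a mean of at least 10 normalized counts and were tested. The members are protein-coding genes on 13 chromosomes.

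RNA was sequenced from sorted SMCs of animals with inactivated *Tet3*, whose product turns methylated cytosines of DNA into their hydroxymethylated form, and from control animals, with 2 libraries in each group from separate animals. Mutants carried *Tet3* fl/fl, a tamoxifen-inducible Cre recombinase driven by the α-SMA promoter (α-SMA ERT2Cre) and a *ROSA26* tdTomato reporter, on the C57BL/6 strain. Controls had no floxed *Tet3* allele. Across the study they carried the Cre, the reporter or both, and sorting of tdTomato-positive cells, as for these libraries, requires both. Tamoxifen was given to adult mice. Blood cells were depleted with CD45 and Ter-119 beads before living tdTomato-positive cells were sorted, so that any other cell with an active α-SMA promoter could also be in the sort. The age at collection for these libraries is not given in the sources used here.

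Values are normalized counts, that is, reads per gene as the authors scaled them between libraries and rounded them to whole numbers. Each library held about 6.32 M to 7.56 M reads assigned to genes, an estimate. The values of a group are given in the order of replicates 1 and 2. *Tet3* itself stood at 1847 and 1926 in the controls and at 1534 and 1444 in the Tet3 mutants (log2 fold change -0.34 ± 0.10, SE; limma adjusted p 0.681). Summed over 10 smooth muscle markers the libraries held 10762 to 12895 normalized counts. Sums over 5 markers of endothelium (11676 to 12827) and 5 of fibroblasts (12622 to 15717) were as high. The lists differ in size and the sums are not corrected for gene length, so they do not rank the cell types. Summed leukocyte markers ranged from 3718 to 5394 and epithelial markers from 5012 to 8431, and no marker was at 0 in any library. In RNA from pools of sorted cells, fewer cells of a type and less RNA per cell cannot be told apart.

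RNA polymerase II copies a gene inside chromatin with the help of factors that travel with it. Histone chaperones take nucleosomes apart in front of the polymerase and put them back behind it, and this reassembly is known to keep polymerases from starting inside genes. Transcripts that arise at such sites or carry premature stop codons are removed by the nuclear and cytoplasmic exosome, by 5′ to 3′ exonucleases and by nonsense-mediated decay.

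The promoters of these genes were read for CpG, the sequence at which cytosine is methylated and oxidized. RefSeq windows on GRCm38.p6, each of 250 bases before to 50 bases after a start, were found for 24 of the 30 genes, in 26 windows. Their median was 27.5 CpG per window, beside 19 for the 14216 windows of tested protein-coding genes, and they ranged from 11 in *Exosc2* to 54 in *Cdc73*. Windows of 2 genes are printed 5′ to 3′ with each CpG in capitals. *Exosc7* is shown because its values set 1 library apart from the others. *Smg1* is shown because it had the highest mean normalized count of the group, without correction for length. The *Exosc7* window lies at chr9:123112981-123113280 on the plus strand, holds 41 CpG and also covers the start of *Zdhhc3*, which is read in the opposite direction. The *Smg1* window lies at chr7:118243588-118243887 on the minus strand and holds 30 CpG.
Exosc7: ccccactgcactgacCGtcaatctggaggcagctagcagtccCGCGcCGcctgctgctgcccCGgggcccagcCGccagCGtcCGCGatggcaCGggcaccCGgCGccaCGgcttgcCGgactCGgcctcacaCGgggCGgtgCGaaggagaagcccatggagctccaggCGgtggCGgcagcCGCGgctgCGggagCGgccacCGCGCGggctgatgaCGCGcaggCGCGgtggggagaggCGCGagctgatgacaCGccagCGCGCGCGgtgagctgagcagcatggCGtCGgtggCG
Smg1: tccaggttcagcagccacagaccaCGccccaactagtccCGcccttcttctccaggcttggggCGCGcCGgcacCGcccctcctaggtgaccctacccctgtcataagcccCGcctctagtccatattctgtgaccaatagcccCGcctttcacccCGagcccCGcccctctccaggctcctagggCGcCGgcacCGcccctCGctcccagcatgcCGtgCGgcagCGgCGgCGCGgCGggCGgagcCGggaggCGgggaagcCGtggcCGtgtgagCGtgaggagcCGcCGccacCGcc
At least 41 CpG were present in 6.18% of the windows of tested protein-coding genes, and at least 30 in 21.4%. The windows were searched on both strands for CCGGAAG, the core bound by ETS factors, and for GGGCGG, the GC box bound by Sp1-type factors. The first was present in 7 of the 24 genes (29.2%), beside 18.5% of tested protein-coding genes, and the second in 20 (83.3%), beside 66.5%. The *Exosc7* and *Smg1* windows both hold the GC box, and neither holds CCGGAAG. These matches describe letters in a window and show no binding.

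Expression of the group was close to equal in mutant and control libraries. None of the 30 genes passed the threshold (limma on log2(normalized count + 1), Benjamini-Hochberg adjusted p under 0.05 over all 16659 genes tested), where 0% of all tested genes passed. The smallest adjusted p was 0.689, and the smallest over all genes was 0.0902. No member reached an unadjusted p under 0.05 either, beside 6.68% of all tested genes (3.83% higher and 2.85% lower), and the smallest was 0.115, for *Chd1*. The members had a median log2 fold change of 0.0050, with 15 above 0 and 15 below, where 51% of all tested genes were below 0 with a median of -0.0069. With equal library totals the split became 18 above and 12 below 0. With 2 against 2 libraries an exact permutation test of a single gene cannot go below 0.333, so no such test was run.

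Control and mutant values did not overlap in 11 of the 30 genes, 5 with both mutants higher and 6 with both lower. Over all tested genes 39% did not overlap, with 19.6% higher and 19.5% lower. The share among the members is close to that background. With equal library totals there were 9 higher and 3 lower, where 6822 of the 16659 tested genes did not overlap, both directions together.

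**Figure D1:**
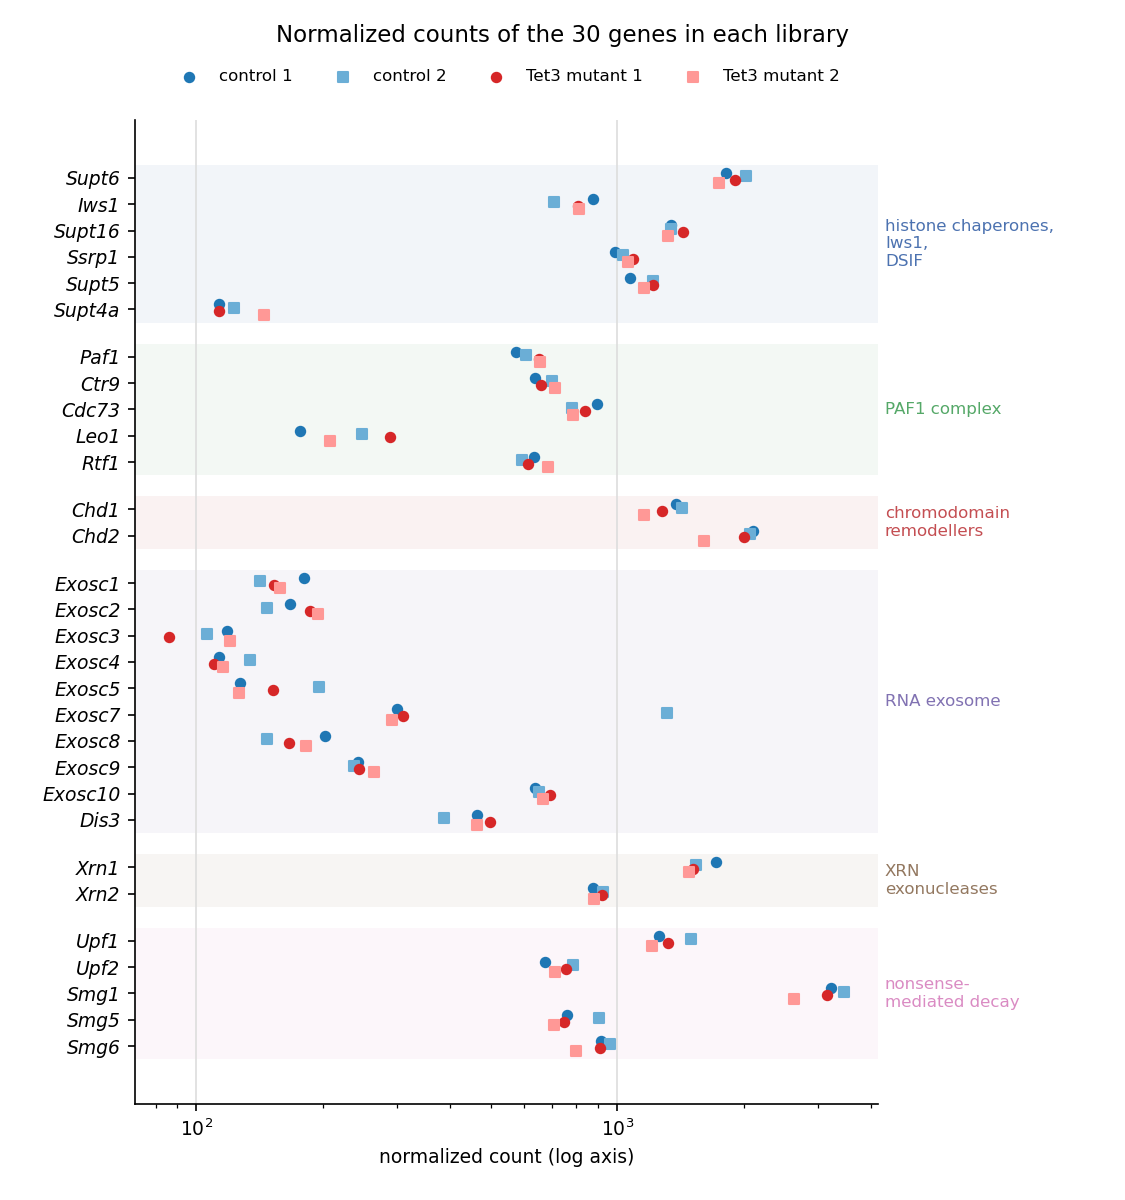
Normalized counts (log axis) of the 30 genes, 1 row per gene and 1 point per library, ordered by complex. For most genes the 4 points lie close together, whereas control replicate 2 stands at 1316 for *Exosc7* and the 3 other libraries between 291 and 310.

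The spread within groups was small. The members' median residual SD was 0.11 on the log2 scale, beside 0.15 for the 10573 tested genes with a mean in the same range (107.5 to 3108.75 normalized counts). The median size of the fold change was 0.12, beside 0.14. The 95% interval of the fold change (limma) lay within 1.5-fold in either direction for 23 members and within 2-fold for 29, *Exosc7* being the exception. For these genes changes beyond those bounds lie outside the interval. Half-widths of the intervals ran from 0.26 to 0.70 on the log2 scale among the 29 members without *Exosc7*. Changes smaller than a gene's half-width could not be resolved with 4 libraries.

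**Figure D2:**
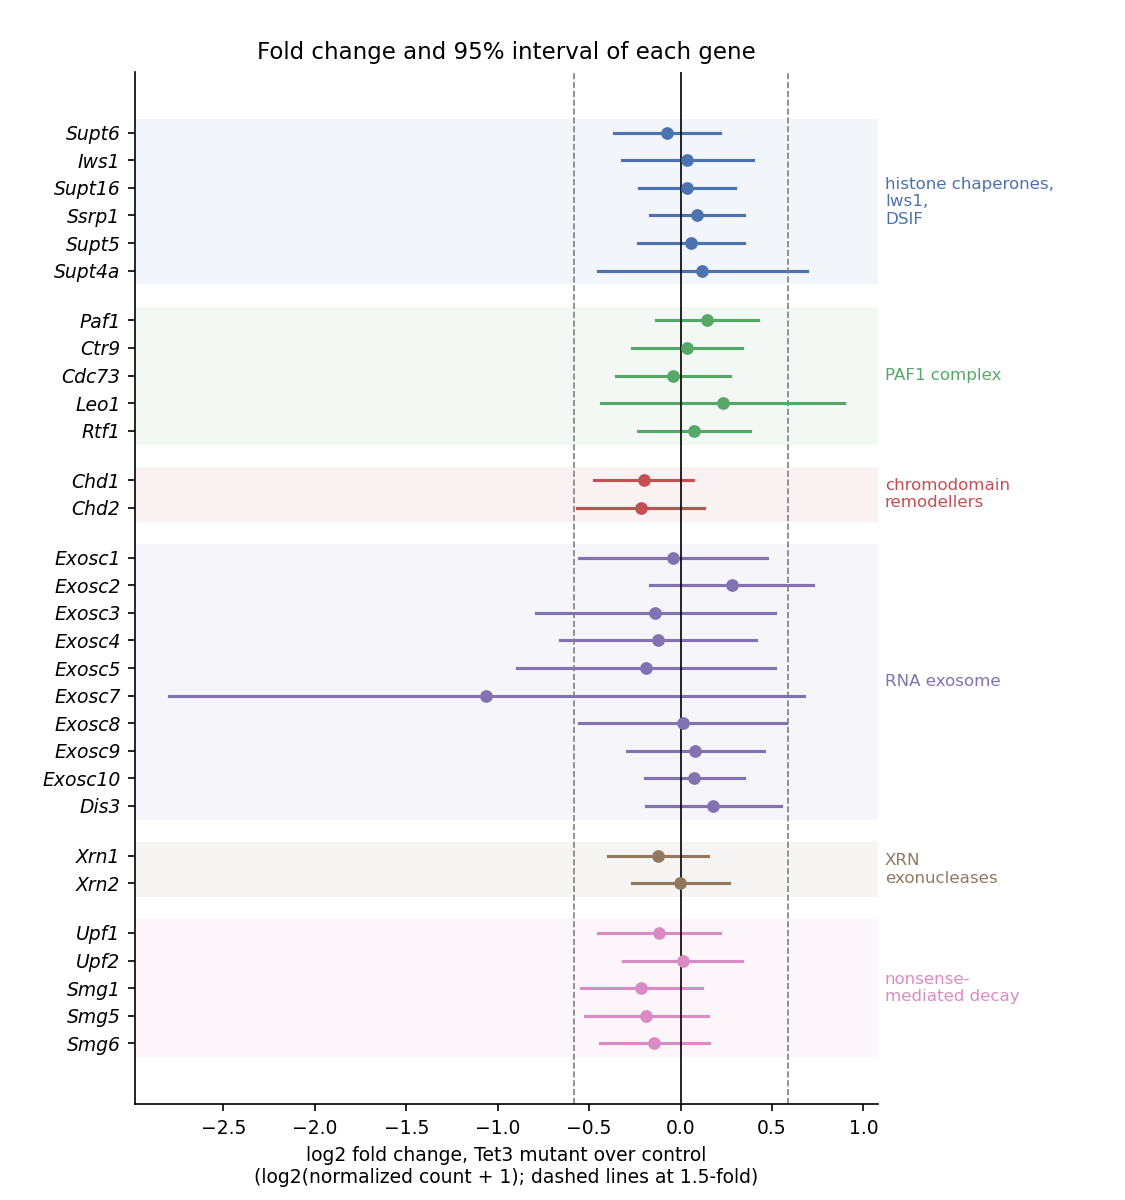
Log2 fold change, Tet3 mutant over control, with its 95% interval for each of the 30 genes, coloured by complex. All 30 intervals include 0, and the interval of *Exosc7* runs from -2.80 to 0.67.

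The first set consists of factors that handle histones in the path of the polymerase, together with DSIF. *Supt6* encodes SPT6, a histone chaperone that binds the elongating polymerase. It had 1813 and 2021 normalized counts in the controls and 1901 and 1742 in the mutants, a log2 fold change of -0.073 ± 0.11 (SE). Its partner *Iws1* had 877 and 709 in the controls and 806 and 812 in the mutants. For both genes the mutant values lay inside or overlapped the range of the controls. *Supt16* and *Ssrp1* encode the subunits of FACT, which loosens histones H2A and H2B from the nucleosome. *Supt16* had 1344 and 1343 normalized counts in the controls and 1435 and 1318 in the mutants. *Ssrp1* had 988 and 1033 in the controls and 1092 and 1061 in the mutants. Both mutant values of *Ssrp1* were above both controls, with a log2 fold change of 0.091 and a 95% interval of -0.17 to 0.35. *Supt16* overlapped. Of the unique 75-base sequences of the *Supt16* transcripts 18.4% also occur, on either strand, in transcripts of the overlapping gene *Rpgrip1*, so its counts are less certain.

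DSIF, formed by SPT5 and SPT4, clamps the polymerase to its template and takes part in promoter-proximal pausing. *Supt5* had 1073 and 1213 normalized counts in the controls and 1215 and 1156 in the mutants. *Supt4a* had 113 and 123 in the controls and 113 and 145 in the mutants. Neither gene separated the groups, and *Supt4a*, of which 11.6% of the 75-base sequences also occur in *Supt4b*, is uncertain. *Supt4b* was not analysed here. Summed over the 6 genes, the libraries held 6208 and 6442 normalized counts in the controls and 6562 and 6234 in the mutants, and the highest library exceeded the lowest by 5.70%.

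The PAF1 complex rides on the polymerase and promotes histone H2B ubiquitination and elongation. *Paf1* had 576 and 606 normalized counts in the controls and 653 and 654 in the mutants. Both mutants were higher, with a log2 fold change of 0.15 ± 0.11 (SE) and a limma adjusted p of 0.729. *Ctr9*, the scaffold subunit, had 639 and 700 in the controls and 658 and 712 in the mutants. *Cdc73* had 894 and 779 in the controls and 836 and 784 in the mutants. These groups overlapped, and the fold change of *Cdc73* (-0.044) changed sign with equal library totals (0.0047). *Leo1* had 176 and 248 in the controls and 289 and 208 in the mutants. It was the most variable member after *Exosc7* among the 30, with a residual SD of 0.34 and a 95% interval of -0.43 to 0.89. *Rtf1*, which binds the complex and recruits the H2B ubiquitination machinery, had 635 and 595 in the controls and 613 and 683 in the mutants. The sum over the 5 genes was 2920 and 2928 normalized counts in the controls and 3049 and 3041 in the mutants, 1.04 times as high in the mutants.

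*Chd1* and *Chd2* encode chromodomain remodellers that space nucleosomes over transcribed genes, and CHD1 binds histone H3 trimethylated at lysine 4. *Chd1* had 1379 and 1425 normalized counts in the controls and 1280 and 1160 in the mutants. *Chd2* had 2101 and 2072 in the controls and 2000 and 1608 in the mutants. In both genes the mutant values were below the controls, with log2 fold changes of -0.20 ± 0.11 and -0.22 ± 0.14 (SE) and limma adjusted p-values of 0.689 and 0.703. The distance of *Chd2* rested mainly on mutant replicate 2, and without that library its log2 fold change was -0.061. Of the 75-base sequences of *Chd2* 17.3% also occur in transcripts of the overlapping genes *1810026B05Rik* and *Gm44686*.

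The exosome degrades RNA from the 3′ end. Its core is a ring of inactive subunits with a cap that threads RNA into the catalytic subunits. The cap subunit genes are *Exosc1*, *Exosc2* and *Exosc3*. *Exosc1* had 180 and 142 normalized counts in the controls and 153 and 158 in the mutants. *Exosc3* had 118 and 106 in the controls and 86 and 120 in the mutants. These 2 overlapped between groups, whereas *Exosc2* did not. *Exosc2* had 167 and 147 in the controls and 186 and 195 in the mutants, a log2 fold change of 0.28 ± 0.17 (SE) with a limma adjusted p of 0.702. This was the highest fold change among the members. Of its 75-base sequences 9.94% occur in transcripts of other genes.

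The ring subunits with values similar in both groups were *Exosc4*, *Exosc5*, *Exosc8* and *Exosc9*. *Exosc4* had 113 and 134 normalized counts in the controls and 110 and 116 in the mutants. *Exosc5* had 127 and 196 in the controls and 152 and 126 in the mutants. In both, control replicate 2 was the highest library and the groups overlapped. *Exosc8* had 202 and 147 in the controls and 166 and 182 in the mutants. *Exosc9* had 242 and 237 in the controls and 243 and 264 in the mutants. *Exosc9* did not overlap, by a margin of 1 normalized count. *Exosc6* was not analysed here. *Exosc10* and *Dis3* encode the nucleases attached to the ring, the first acting in the nucleus and the second providing the processive activity of the core. *Exosc10* had 638 and 651 in the controls and 693 and 666 in the mutants, with both mutants higher and a log2 fold change of 0.076. *Dis3* had 465 and 387 in the controls and 498 and 464 in the mutants and overlapped by 1 normalized count. Without *Exosc7*, the summed exosome genes were at 2252 and 2147 normalized counts in the controls and 2287 and 2291 in the mutants, a ratio of 1.04. The control sums differed by more than the group means.

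*Exosc7*, a further ring subunit (ENSMUSG00000025785, chr9:123113215-123136129 on GRCm38), was the exception. It had 300 normalized counts in control replicate 1, 310 in mutant replicate 1 and 291 in mutant replicate 2, but 1316 in control replicate 2. The 3 like libraries averaged 300.3 ± 9.50 (SD), and control replicate 2 was 4.38 times that mean. Such a difference, with control replicate 2 over 4-fold above each other library, was seen in 0.606% of all tested genes. No other member stood over 1.29-fold above the next library in control replicate 2. The log2 fold change of *Exosc7* was -1.06 ± 0.68 (SE), with a 95% interval of -2.80 to 0.67 and a limma adjusted p of 0.708. Without control replicate 2 it was 0.0017, and without control replicate 1 it was -2.13. The value for *Exosc7* is therefore decided by 1 control library. *Exosc7* is also the 1 member on the study's list of spuriously transcribed genes, which was chosen in part on these samples and is no independent evidence.

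The genes around *Exosc7* were examined in the same way, a choice made after the values of *Exosc7* were seen. Within 100 kb of the gene the table lists 10 genes, itself included, and 8 had a mean of at least 10. Of the 7 neighbours among these, control replicate 2 was over 2-fold above each other library in 4, beside 3.9% of all tested genes, and 2 of the 4 (*Gm9856* and *Tmem42*) overlap each other. *Zdhhc3* starts 10 bp from *Exosc7* on the other strand and had 1582 and 3012 normalized counts in the controls and 1061 and 1482 in the mutants. *Cdcp1*, which encodes a transmembrane glycoprotein of epithelial cells, had 220 and 630 in the controls and 121 and 176 in the mutants. *Tmem42* had 62 and 178 in the controls and 52 and 77 in the mutants, and the antisense transcript *Gm9856* had 79 and 390 against 78 and 86. For each of these genes control replicate 2 was the highest library. *Gm47159*, downstream of *Exosc7*, had 3 and 43 in the controls and 2 and 5 in the mutants. *Clec3b*, between the latter and *Cdcp1*, did not share the pattern, with 598 and 526 in the controls and 667 and 613 in the mutants. *Kif15*, at the upstream edge, had 79 and 92 against 70 and 99. The same library held the highest sum of epithelial markers, 8431 normalized counts beside 5409 in the other control and 5012 and 5640 in the mutants, and the lowest sum of leukocyte markers. *Scgb1a1* and *Foxj1* of the epithelial list did not follow that sum. *Scgb1a1* had 356 and 244 in the controls and 318 and 350 in the mutants, and *Foxj1* had 249 and 301 against 535 and 431. *Lyz2* of the leukocyte list was highest in control replicate 2, at 1361. The part of the cells marked by these lists in the result was not tested.

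**Figure D3:**
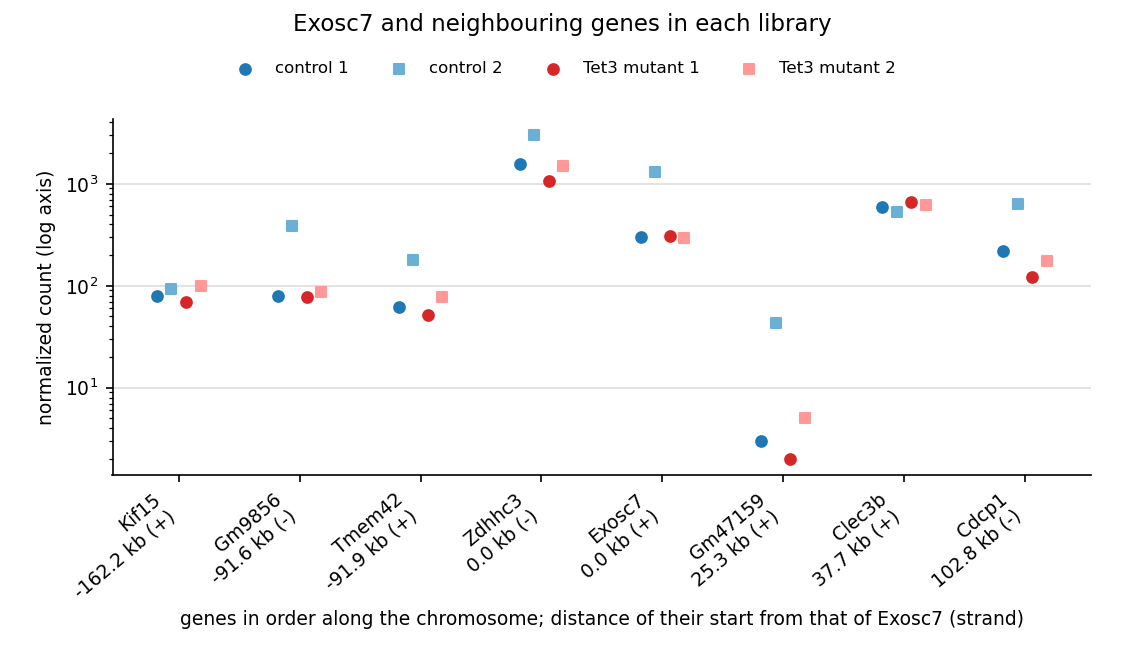
Normalized counts (log axis) of *Exosc7* and its neighbours with a mean of at least 10, in order along the chromosome at equal spacing, with the distance of each start from that of *Exosc7*. Control replicate 2 (light blue squares) lies above the other libraries in 6 of the 8 genes and not in *Kif15* and *Clec3b*.

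*Xrn1* and *Xrn2* encode the 5′ to 3′ exonucleases of the cytoplasm and the nucleus, the second of which also acts when transcription ends. *Xrn1* had 1718 and 1541 normalized counts in the controls and 1511 and 1477 in the mutants. Both mutants were lower, with a log2 fold change of -0.12 ± 0.11 (SE), although the nearest values of the groups were closer together than the controls were. *Xrn2* had 878 and 923 in the controls and 918 and 880 in the mutants. A log2 fold change of -0.0023 had a 95% interval of -0.27 to 0.26, and it turned positive (0.046) with equal library totals.

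Nonsense-mediated decay recognises transcripts whose stop codon lies too early. The helicase *Upf1* had 1257 and 1495 normalized counts in the controls and 1322 and 1209 in the mutants. Its partner *Upf2* had 672 and 786 in the controls and 755 and 712 in the mutants. Neither separated the groups. *Smg1*, the kinase that phosphorylates UPF1, had 3215 and 3452 in the controls and 3145 and 2623 in the mutants. The phosphorylated helicase is bound by SMG5, and SMG6 cuts the target RNA. *Smg5* had 758 and 904 in the controls and 746 and 709 in the mutants. *Smg6* had 917 and 963 in the controls and 908 and 798 in the mutants. In the 3 *Smg* genes both mutants were below both controls, with log2 fold changes of -0.21 ± 0.13, -0.19 ± 0.13 and -0.14 ± 0.12 (SE) for *Smg1*, *Smg5* and *Smg6*. Their limma adjusted p-values were 0.701, 0.722 and 0.745. In each gene mutant replicate 1 lay close to control replicate 1, and mutant replicate 2 was the lowest library. Summed over the 5 genes the controls held 6819 and 7600 normalized counts and the mutants 6876 and 6051. The sums overlapped between groups.

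Mutant replicate 2 was the lowest library in 11 of the 30 genes (36.7%), beside 20.8% of all tested genes. Without it, the log2 fold changes of *Smg1*, *Smg5* and *Smg6* were -0.083, -0.15 and -0.049, and that of *Chd1* was -0.13. Without control replicate 2, those of *Smg5* and *Xrn1* were -0.060 and -0.20, and without control replicate 1 that of *Xrn1* was -0.045. The same library had the lowest sum over 10 genes of dissociation stress, 6741 normalized counts beside 9280 in mutant replicate 1 and 8785 and 10988 in the controls. The part of this in the lower values was not tested.

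Fold changes were set beside exon length, with no test. Of the 15 genes with over 5602.5 bp of merged exons 10 had a fold change below 0, with a median of -0.12, and of the 15 shorter genes 5 did, with a median of 0.034. Split at the same length, 55.8% of the longer and 43.3% of the shorter tested protein-coding genes were below 0, a tilt in the same direction. In 6 of the longer genes both mutants were below both controls, beside 19.5% of all tested genes, and the others overlapped. That share was not counted for the longer tested genes alone. Across the 30 genes Spearman's rho of fold change and exon length was -0.48 and Pearson's r was -0.23. Across 14060 tested protein-coding genes rho was -0.14. These correlations are across genes that share the same 4 libraries, and genes are not independent replicates. *Smg1*, *Xrn1*, *Cdc73* and *Chd2*, the longest members with 14300 to 23984 bp of merged exons, all had a fold change below 0 as deposited, that of *Cdc73* turning above 0 with equal library totals.

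**Figure D4:**
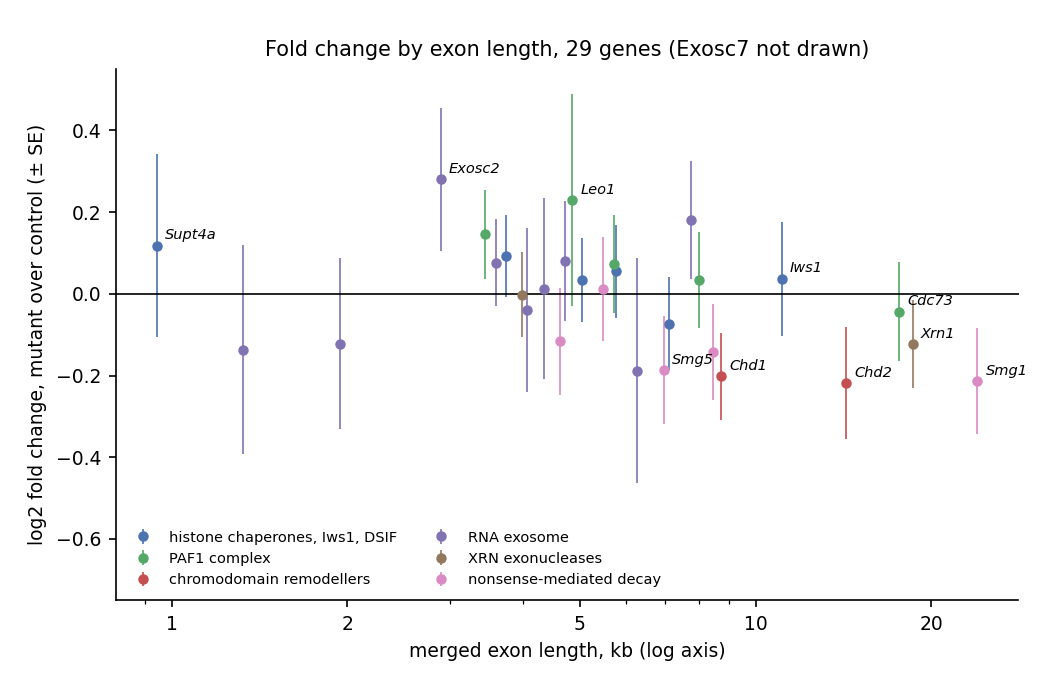
Log2 fold change, Tet3 mutant over control, with its SE against merged exon length in kb (log axis) for 29 genes, coloured by complex; *Exosc7* is not drawn. Genes lie on both sides of 0 among the short ones and among the long ones, where *Iws1* lies above 0 and *Chd1*, *Chd2*, *Xrn1* and *Smg1* below.

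Compared per length, these transcripts were abundant. The median level was 108 normalized counts per kb of merged exon, beside 65.9 for tested protein-coding genes, and 21 of the 30 lay above the latter. *Upf1* (286 ± 27.1 per kb, SD, n = 4), *Ssrp1* (279 ± 11.8), *Supt16* (270 ± 10.2) and *Supt6* (263 ± 17.0) were the highest and did not differ beyond the spread of *Upf1*. The exosome core stood lower. Its 8 cap and ring genes ranged from 24.0 ± 5.23 for *Exosc5* to 92.2 for *Exosc7*, the latter raised by 1 library, with a median of 56.3. *Exosc10*, at 184 ± 6.57 per kb, was above every core gene. Since exons of all annotated transcripts were merged, genes with many isoforms appear lower. With the longest transcript instead, levels were 1.0 to 1.90 times as high and the order at the top changed, with *Ssrp1* at 381 per kb, *Paf1* at 311, *Supt5* at 310 and *Upf1* still at 286.

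**Figure D5:**
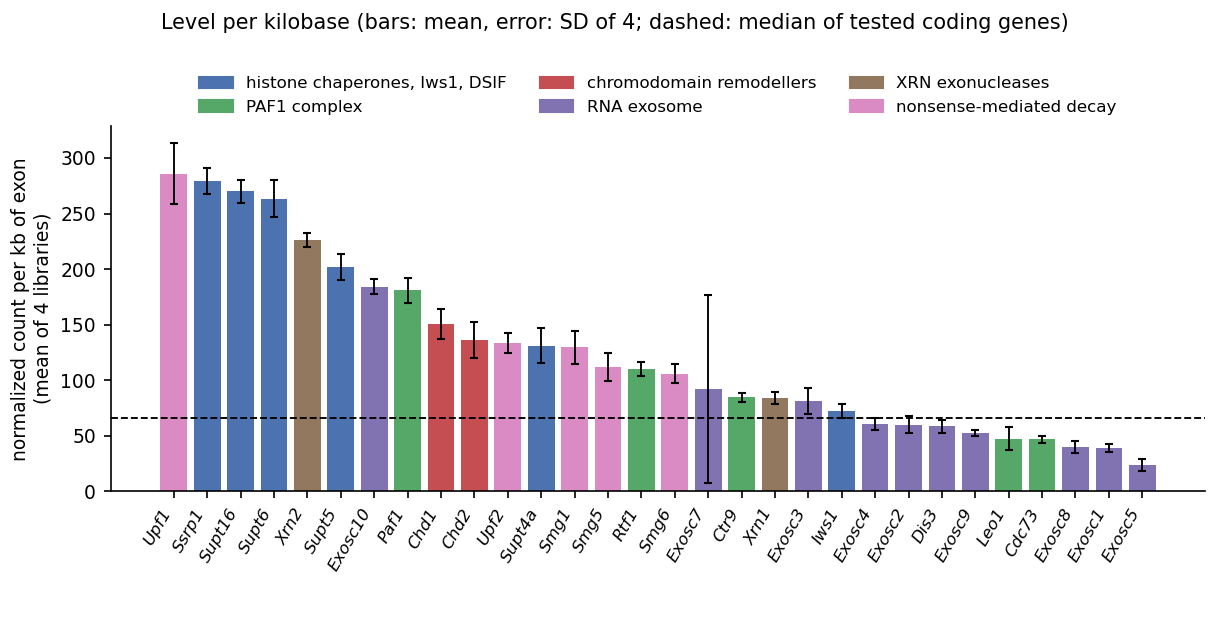
Level of each of the 30 genes in normalized counts per kb of merged exon, as bars of the mean of the 4 libraries with the SD, coloured by complex and ordered by level. The dashed line marks the median of tested protein-coding genes at 65.9, and most exosome genes stand at the low end.

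Some members have a divergent neighbour, an arrangement that was not used to choose them. A gene on the opposite strand starts within 1000 bp of the start of 13 of the 30 (43.3%), beside 20.1% of tested protein-coding genes. Among these divergent neighbours are *Zdhhc3* at *Exosc7*, *Zdhhc16* at *Exosc1*, *Alg5* at *Exosc8*, *Med29* at *Paf1* and *Sdf2* at *Supt6*. In 14 genes the annotated span overlaps a gene on the opposite strand and in 3 a gene on the same strand. Whether counting used the strand is not stated, so reads of overlapping pairs cannot be told apart. Of the 30 genes 14 share no 75-base sequence, the length of 1 read, with a transcript of another gene.

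Other genes of the same pathways were tested beside the members. Of the 127 tested, 0 passed the adjusted threshold and 1 had an unadjusted p under 0.05 (0.787%), beside 6.68% of all tested genes. The 1 gene was *Ell2*, which encodes a subunit of the super elongation complex. It had 556 and 628 normalized counts in the controls and 423 and 483 in the mutants (log2 fold change -0.39 ± 0.14, SE, limma adjusted p 0.681). Groups did not overlap in 50 of the 127 (39.4%), beside 39% of all tested genes. Among 27 other elongation factors, which include P-TEFb, the super elongation complex, NELF and the CTD kinases, 20 had fold changes below 0 and the median was -0.11. In 13 of them both mutants were below both controls and in 1 above, beside 19.5% and 19.6% of all tested genes. With equal library totals these were 10 and 1, where 6822 of the 16659 tested genes did not overlap, both directions together. Under that setting 17 of the 27 were below 0, with a median of -0.066. Without control replicate 2 the median was -0.047 with 21 below 0, and without control replicate 1 it was -0.18 with 22 below 0. Transcripts known as targets of nonsense-mediated decay, 12 in number, had a median of -0.11, with 10 below 0. Without mutant replicate 2 that median was 0.022 and 5 were below 0, and without mutant replicate 1 it was -0.20 and 11 were below 0. The 15 other nonsense-mediated decay factors had a median of 0.028, with 9 above 0 and 6 below. The 16 other exosome subunits and cofactors had a median of -0.035 as deposited and 0.013 with equal library totals. None of these lists held a gene past the adjusted threshold.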

How the data were processed

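RNA of sorted lung SMCs was measured in 2 Tet3 mutant and 2 control libraries, grouped by the genotype in their labels. By the study's methods, ribosomal RNA was removed, and stranded libraries were read from one end over 75 bases. Trimmomatic 0.36, STAR 2.6.0c and featureCounts (Subread 1.6.0) are named in the submitters' processing notes, on mm10 (GRCm38). Reads of several genes or places were excluded, and the strand setting of counting is not given in the sources used here. The deposited values are a score: counts that the authors scaled with DESeq2 and rounded to whole numbers, not raw counts. The table also holds gene annotation, and its coordinates are given as listed. Reads assigned to genes were estimated from gaps and doublings among low values, which the scaling leaves (6.32 M to 7.56 M per library). Below a scaling factor of 1, rounding merges neighbouring read numbers, so no count test was run.

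Genes with a mean of at least 10 (16659) were fitted on log2(value + 1) with limma 3.58.1 in R 4.3.3 (lmFit, eBayes with trend, genotype only), with Benjamini-Hochberg adjustment over all of them and a threshold of 0.05. That scale understates changes of low genes. The fit and the depth estimate were tested on simulated data. The p-values, SEs and intervals rest on the spread between 2 animals per group, which limma draws toward the trend over all tested genes. An SE can therefore lie above or below what a gene's own 4 values would give. Exon lengths came from GENCODE for GRCm38 and promoters from RefSeq. All 30 members are described, with the values of each library. Of the other pathway lists a gene was named if it had the smallest unadjusted p in its direction, under 0.05, and a mean of at least 50. Genes near *Exosc7* were chosen after values were seen. The members and lists were chosen with earlier results of these data known. Alternatives were a pseudocount of 0.5 or 8, a minimum mean of 1 or 50, trimmed-mean (TMM) factors, equal library totals, no trend, sample quality weights, the replicate number as a block and each library left out. For levels per kb, the longest transcript was tried. Replicate numbers gave 2 pairs, whose deviations from the group means correlated at 0.13 (Pearson, 16659 genes), and they were not taken as pairing the samples.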

Additional observations from a re-analysis of the deposited data

How the results depend on the processing

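No member passed the adjusted threshold under any of the 13 alternatives run. Without the mean-variance trend 1 gene of the table passed, which is no member. Under the alternatives that kept all 4 libraries, 0 members had an unadjusted p under 0.05 (limma). Without control replicate 1 the log2 fold changes of *Exosc7* and *Smg5* were -2.13 and -0.31. Leaving out a library leaves 1 sample in its group, assumed to vary like the other group, and fewer samples overlap less. Thus 17 to 24 of the 30 members did not overlap, beside 10622 to 13114 of all 16659 tested genes. The members' median log2 fold change stayed between -0.033 and 0.053. With the replicate block, 0 genes passed and 1637 had an unadjusted p under 0.05, beside 1112, with 0 members among them and a smallest adjusted p of 0.149. Each group shares only a number with the other, and the block changed no call.

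Equal library totals shifted the median of all genes by 0.048 and turned *Cdc73* (0.0047), *Exosc1* (0.0082) and *Xrn2* (0.046) above 0. Of all genes at an unadjusted p under 0.05, 638 were higher and 474 lower as deposited, and 796 and 355 with equal totals. When 1 library was left out, 13 members kept their direction. The fold changes of the other 17 ranged from -0.15 to 0.0054 for *Supt6*, from -0.12 to 0.19 for *Iws1*, from -0.028 to 0.095 for *Supt16*, from -0.034 to 0.14 for *Supt5*, from -0.061 to 0.30 for *Supt4a*, from -0.032 to 0.099 for *Ctr9*, from -0.14 to 0.055 for *Cdc73*, from -0.016 to 0.48 for *Leo1*, from -0.0039 to 0.15 for *Rtf1*, from -0.21 to 0.13 for *Exosc1*, from -0.38 to 0.10 for *Exosc3*, from -0.50 to 0.12 for *Exosc5*, from -2.13 to 0.0017 for *Exosc7*, from -0.22 to 0.24 for *Exosc8*, from -0.038 to 0.034 for *Xrn2*, from -0.24 to 0.0083 for *Upf1* and from -0.10 to 0.13 for *Upf2*. The cause of these reversals was not tested. For levels per kb, the longest transcript moved 24 of 30 by over 1 SD. With 2 libraries per group and about 100 to 200 normalized counts for most exosome core genes, changes under about 1.5-fold could not be resolved for them.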

Other observations

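Other genes of transcription, chromatin and decay lay on both sides of 0. Of 13 polymerase II subunit genes 6 had a log2 fold change above 0 and 7 below (-0.52 to 0.31), and the median was -0.023 as deposited and 0.025 with equal library totals. The 14 other histone chaperones had a median of 0.041, with 8 above 0 and 6 below (-0.56 to 0.94). Among 31 genes of decapping and deadenylation, the steps that open a transcript to decay from either end, 16 were at or below 0 (-0.49 to 0.24). Both mutants were above both controls in 2 of these and below them in 8, beside 19.6% and 19.5% of all tested genes. With equal library totals these were 8 and 5, where 6822 of the 16659 tested genes did not overlap, both directions together. No gene of these 3 lists had an unadjusted p under 0.05 (limma), beside 6.68% of all tested genes.

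Of the 6 lists of cell type and dissociation stress genes, 5 held 1 to 3 genes at an unadjusted p under 0.05 (limma). None of their genes passed the adjusted threshold. At that p, mutants were higher for 3 of 10 smooth muscle, 2 of 8 leukocyte, 1 of 7 epithelial and 1 of 5 fibroblast markers. They were lower for 1 of 10 dissociation stress genes, and 0 of 5 endothelial markers were under that p. Over all tested genes 3.83% were higher and 2.85% lower. Single libraries moved the medians of these lists. The median log2 fold change was 0.46 for smooth muscle markers (0.21 without control replicate 1, 0.73 without control replicate 2). For leukocyte markers it was 0.61 (0.85 without control replicate 1, 0.21 without control replicate 2). For epithelial markers it was -0.37 (-0.68 without control replicate 1, -0.093 without control replicate 2). Their 1 gene at an unadjusted p under 0.05 (limma), *Foxj1*, had a log2 fold change of 0.81. For endothelial and fibroblast markers the medians were 0.091 and 0.17. These were 0.21 and 0.28 without control replicate 1, and -0.010 and 0.029 without control replicate 2. Genes of dissociation stress had a median of -0.24 (-0.44 without control replicate 1, -0.013 without mutant replicate 2).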
